A study of Mus musculus with 2 samples.

Results

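The collagen chains on the array were the 37 genes whose deposited gene name is Col, a number, a and a number, out of 27822 named genes, with Col17a1, Col2a1, Col9a1 and Col11a2 left out. They were represented by 72 probes on 81 spots, and each gene was read from its brightest probe. RNA came from prostaspheres, which are spheres that prostate epithelial cells form in matrigel, and was hybridized to 2 Agilent whole mouse arrays of 1 slide with a Sox9-expressing RNA in Cy5 and a Sox9-deleted RNA in Cy3 on each. The genotype comparison paired wild-type cells with ER-Sox9flox/flox cells, both given tamoxifen (TAM). The treatment comparison paired ER-Sox9flox/flox cells given vehicle with ER-Sox9flox/flox cells given TAM. All cells were on the C57/Bl6J background, came, per the labels, from urogenital sinus epithelium of embryos at 16 dpc, and were grown with dihydrotestosterone for 6 days before and 6 days of 5 µM TAM or vehicle. The methods instead describe adult prostate tissue for this assay. The Cre recombinase that TAM activates in ER-Sox9flox/flox cells is not restricted to a cell type, so Sox9 could be deleted in any cell of the spheres, and the labels do not say whether the wild-type cells carried this Cre. The labels do not say whether the RNAs came from separate embryos or cultures, so the p-values measure no more than the spread between these 2 arrays. In limma that spread is pooled in part with the spread of all tested probes. The 2 arrays are also different comparisons.

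Collagens are the main structural proteins of the extracellular matrix, and each molecule is a triple helix of alpha chains from the same gene or from several. Fibrillar chains (types I, III, V, XI, XXIV and XXVII) form the striated fibrils of connective tissue and are made largely by fibroblasts and other mesenchymal cells. Type IV chains form the sheet-like network of the basement membrane on which epithelium rests, and type VII collagen, made by basal keratinocytes and similar epithelial cells, anchors that membrane to the fibrils beneath it. In the prostate, the epithelium lies on a basement membrane inside a collagen-rich stroma of fibroblasts and smooth muscle.

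The arrays and the deletion were checked first. The most strongly lit probe of Sox9, the deleted transcription factor, had a brightness of 1630 in wild-type TAM RNA and 1200 in vehicle RNA, against 253 and 232 in the Sox9-deleted RNAs of the genotype and the treatment comparison. Brightness is the fluorescence after normalization in arbitrary units, and it can be set against the same probe in another RNA but not against another probe. The log2 ratio of Sox9-expressing over Sox9-deleted RNA was 2.69 and 2.37 on the 2 arrays for this probe and 1.18 and 1.27 for another, whereas the third Sox9 probe gave -1.0 and -1.22. Between 53.9% and 56.2% of all probes were well above background in each RNA by the mark of the scanner software. The 2 Sox9-expressing RNAs stood apart from each other more than the 2 deleted ones did: at least a 2-fold difference in normalized brightness separated 299 of 15122 tested genes between the former and 3 between the latter. Since the former also differ in genotype and treatment, the source of that difference cannot be told apart. No array had its dyes swapped, so a dye effect and the Sox9 response cannot be told apart either.

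Chains of the fibrillar, basement membrane and epithelial anchoring types were all found in prostaspheres. The brightest probe was well above background for 25 of the 37 genes in wild-type TAM RNA, 31 in vehicle RNA, and 27 and 29 in the Sox9-deleted RNAs of the genotype and the treatment comparison. In all 4 RNAs it was so for 23 genes, and in none for 6, which were Col9a2, Col13a1, Col19a1, Col24a1, Col28a1 and Col29a1 (named Col6a5 in RefSeq). The genes tested were those well above background in the Cy5 RNAs of both arrays or the Cy3 RNAs of both. They were 29 of the 37, against 15122 of all 27822 named genes, and all counts below are over tested genes. Besides the 6 named, Col4a5 and Col14a1 were not tested. Both were well above background in vehicle RNA only, where each had a brightness of 102, and no fold is given for them. By class, 8 of 9 fibrillar genes, 5 of 6 basement membrane genes, 3 of 4 type VI genes, 5 of 8 fibril-associated genes, all 3 network-forming genes, both multiplexins, the anchoring fibril gene and 2 of 3 transmembrane genes were tested.

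For the sequences around the fibrillar genes, the 250 bases before the start site in RefSeq (GRCm38.p6) are given for 3 chains with opposite signs on the arrays and for Col5a3, a fibrillar chain that was lower with Sox9 on both. Capitals mark matches, on either strand, to CCAAT, to TATAAA and to the SOX-type sequences ACAATG and ACAAAG, and a match on the reverse strand is shown as its reverse complement.
Col1a2, chr6:4505368-4505617, forward strand: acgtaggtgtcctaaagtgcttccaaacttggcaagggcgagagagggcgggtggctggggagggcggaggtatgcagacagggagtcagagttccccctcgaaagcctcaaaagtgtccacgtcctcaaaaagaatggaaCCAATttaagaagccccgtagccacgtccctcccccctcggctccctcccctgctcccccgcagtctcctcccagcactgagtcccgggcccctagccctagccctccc
Col3a1, chr1:45311288-45311537, forward strand: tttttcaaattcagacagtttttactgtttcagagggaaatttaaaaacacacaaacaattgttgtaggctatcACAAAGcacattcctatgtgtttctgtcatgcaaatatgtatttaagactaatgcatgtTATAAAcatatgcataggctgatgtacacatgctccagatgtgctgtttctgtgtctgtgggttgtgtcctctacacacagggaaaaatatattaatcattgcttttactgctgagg
Col11a1, chr3:114030290-114030539, forward strand: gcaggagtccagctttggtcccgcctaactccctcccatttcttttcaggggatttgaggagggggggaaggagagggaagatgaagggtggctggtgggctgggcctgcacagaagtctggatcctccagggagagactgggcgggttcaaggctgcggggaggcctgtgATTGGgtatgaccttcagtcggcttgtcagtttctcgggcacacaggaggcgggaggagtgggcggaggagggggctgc
Col5a3, chr9:20815068-20815317, reverse strand: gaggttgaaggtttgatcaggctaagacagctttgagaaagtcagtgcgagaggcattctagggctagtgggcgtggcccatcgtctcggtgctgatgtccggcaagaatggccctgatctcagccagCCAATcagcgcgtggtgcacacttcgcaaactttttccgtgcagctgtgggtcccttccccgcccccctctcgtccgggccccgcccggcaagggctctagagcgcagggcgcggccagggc

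CCAAT begins 109 bases before the start of Col1a2, 79 bases before that of Col11a1 (as ATTGG) and 122 bases before that of Col5a3. Col3a1 held ACAAAG and TATAAA and no CCAAT. A window was found for 30 of the 37 genes and for 23 of the tested ones. Of these 23, 9 held CCAAT, against 33.8% of 32851 mouse windows of this length, 2 held TATAAA (12.4% of windows), 3 held ACAAAG (16.5%) and 0 held ACAATG (10.7%). The 3 with ACAAAG were Col3a1, Col10a1 and Col20a1. These are counts of letters and not of bound sites.

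The fibrillar chains differed in direction between the comparisons. In 6 of the 8 tested, the level was lower in wild-type TAM than in Sox9-deleted RNA on one array and higher in vehicle than in Sox9-deleted RNA on the other. Of all tested genes, 18.4% had these signs. Collagen mRNA per culture was measured in bulk, so fewer cells of a type and less RNA per cell cannot be told apart. Col1a1 and Col1a2 encode the chains of type I collagen, the most abundant fibrillar collagen. Col1a1, measured by 10 spots at chr11:94813075-94813134 of mm9, had a brightness of 2120 in wild-type TAM RNA, 8960 in vehicle RNA, and 5070 and 4380 in the Sox9-deleted RNAs of the genotype and the treatment comparison. The log2 ratios were -1.26 and 1.03 (mean -0.11 ± 1.62, SD, n = 2). Col1a2 (chr6:4490619-4490678) had 10600, 31700, 19000 and 15000 in the same order, and log2 ratios of -0.84 and 1.07. Vehicle RNA was thus the highest and wild-type TAM RNA the lowest for both chains, with the Sox9-deleted RNAs between them. The other 2 Col1a1 probes gave -1.07 and 0.98, and -0.63 and 1.15.

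Type III collagen, a homotrimer of the Col3a1 chain found with type I in soft tissues, had the lowest log2 ratio of the tested collagen chains in the genotype comparison under the processing used. Col3a1 (chr1:45405589-45405648) had a brightness of 2050 in wild-type TAM RNA, 10900 in vehicle RNA, and 6340 and 4970 in the Sox9-deleted RNAs. Its log2 ratios were -1.63 and 1.13, whereas a second tested probe gave -0.29 and 0.94, so the sizes, but not the directions, differed between probes. Type V and type XI chains lie inside type I and type II fibrils and set their diameter. Col5a1 had a brightness of 2130, 5030, 3860 and 3520 in wild-type TAM, vehicle and the 2 Sox9-deleted RNAs, and log2 ratios of -0.86 and 0.52. A second Col5a1 probe gave only -0.09 and 0.31. Col5a2 had 1330, 3750, 2060 and 2190, with -0.63 and 0.77. The same order was seen for Col11a1 (chr3:113922153-113922211), with 460 in wild-type TAM RNA, 3490 in vehicle RNA, and 743 and 741 in the Sox9-deleted RNAs. Its log2 ratio of 2.23 in the treatment comparison was the highest of the collagen chains tested under the processing used, against -0.69 in the genotype comparison, and a second probe gave 2.09 and -0.33.

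Col5a3 and Col27a1 were the fibrillar chains that were lower with Sox9 on both arrays. Col5a3, another type V chain, was measured on chromosome 9 (chr9:20574592-20574651). Its brightness was 884 and 930 in the Sox9-expressing RNAs and 1480 and 1540 in the Sox9-deleted RNAs. Of all tested genes, 33.8% were lower with Sox9 on both arrays. The log2 ratios of Col5a3 were -0.75 and -0.72 (mean -0.74 ± 0.01, SD, n = 2), which is 0.601-fold. The limma test gave an adjusted p of 0.0925 over all 22731 tested probes, which did not pass the threshold of 0.05. A second Col5a3 probe gave only -0.18 and -0.09 (adjusted p = 0.429 in limma), and the mean ratio of both probes was -0.43. Col27a1, a fibrillar chain of cartilage, was dim, with 134 to 148 in the 4 RNAs and log2 ratios of -0.06 and -0.10, which lie within the range of the dim chains.

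**Figure D1:**
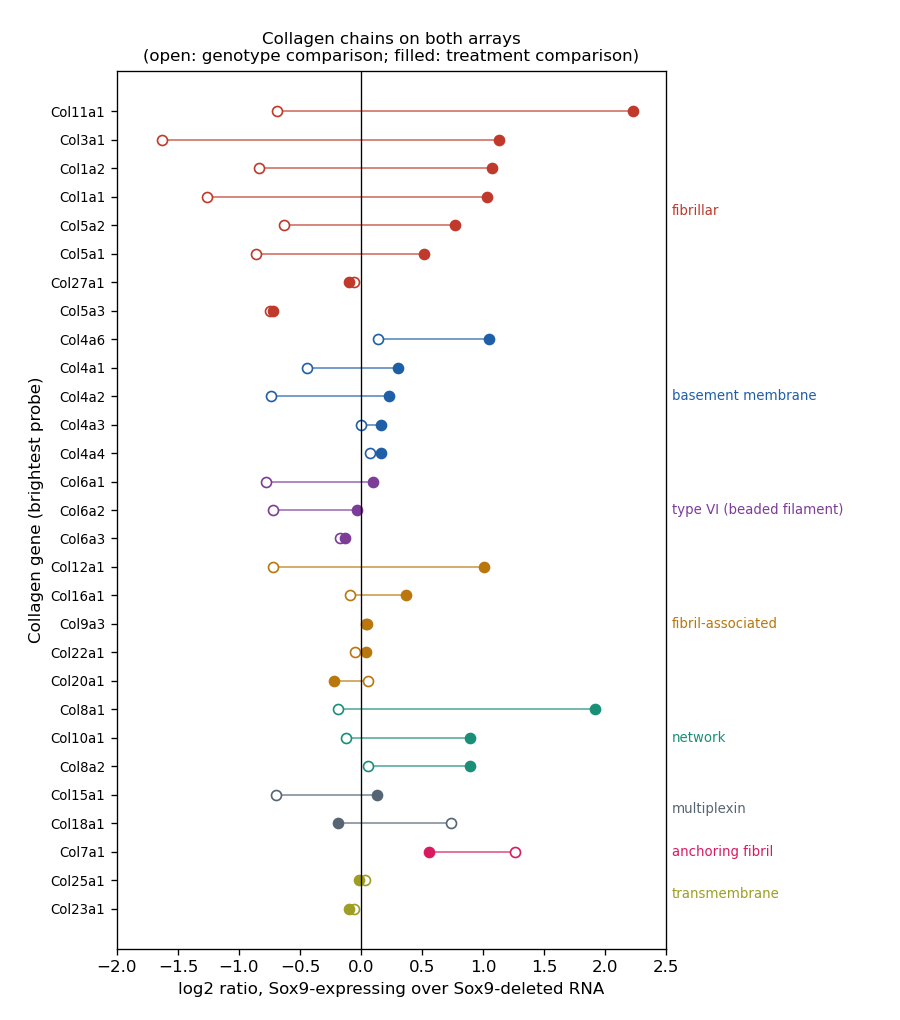
Log2 ratio of Sox9-expressing over Sox9-deleted RNA (horizontal axis) for the 29 tested collagen chains (vertical axis, coloured by class), with the genotype comparison as open and the treatment comparison as filled points and a line joining both values of a gene. Col1a1, Col1a2, Col3a1, Col5a1, Col5a2 and Col11a1 have points on opposite sides of 0, and Col7a1 and Col5a3 have both on one side.

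Of the tested basement membrane chains, Col4a4 and Col4a6 had higher levels with Sox9 in both comparisons, Col4a1 and Col4a2 had opposite signs, and Col4a3 was at 0.00 in the genotype comparison. Col4a1 and Col4a2, neighbouring genes whose chains form the type IV network common to nearly all basement membranes, followed the pattern of the fibrillar chains with smaller differences. Col4a1 had a brightness of 4890 in wild-type TAM RNA, 7820 in vehicle RNA, and 6630 and 6350 in the Sox9-deleted RNAs, with log2 ratios of -0.44 and 0.30. Col4a2 had 2010, 3710, 3360 and 3170, with -0.74 and 0.23. For both, wild-type TAM RNA was the lowest of the 4 and vehicle RNA the highest. Col4a6, a chain of the basement membranes of some epithelia and smooth muscle, had 161, 273, 146 and 132, with log2 ratios of 0.14 and 1.05 (adjusted p = 0.323 in limma), and a second probe gave 0.01 and 0.28. The chains Col4a3 and Col4a4, best known from the glomerular basement membrane, were dim, with 99.1 to 111 and 186 to 214 over the RNAs and log2 ratios between 0.00 and 0.16.

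As a class, the fibrillar chains had a median log2 ratio of -0.79 in the genotype and 0.90 in the treatment comparison, and the basement membrane chains 0.00 and 0.23. Over all 15122 tested genes the medians were -0.01 and 0.01, and over the 29 collagen chains -0.17 and 0.23. The fibrillar median minus the basement membrane median was thus -0.79 on one array and 0.68 on the other. That difference was of nearly the same size with the opposite sign, and with 1 array per comparison it could not be tested against replicate error. The basement membrane median of 0.00 is the value of Col4a3, a dim chain with a brightness of 99.1 to 111. In the same comparison the brighter Col4a1 and Col4a2 had -0.44 and -0.74, and Col4a4 and Col4a6 had 0.07 and 0.14. The filter on all 4 RNAs left Col4a3 out. The genotype median of the basement membrane chains was then -0.18, and the difference was -0.61.

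Col7a1, which encodes the only chain of the anchoring fibrils, had the highest mean log2 ratio of the tested collagen chains under the processing used. With the scanner software's processed signals its mean was 0.89, below 2.08 for Col8a2 and 1.25 for Col4a6. Its probe (chr9:108886855-108886914) had a brightness of 14000 in wild-type TAM RNA and 8740 in vehicle RNA, against 5840 and 5930 in the Sox9-deleted RNAs. Both Sox9-expressing RNAs lay above both Sox9-deleted ones. Of all tested genes, 33.9% were higher with Sox9 on both arrays. The log2 ratios of Col7a1 were 1.26 and 0.56 (mean 0.91 ± 0.50, SD, n = 2), or 1.88-fold, and the adjusted p of limma was 0.179. The gene had 1 probe, so no second probe could be compared. Under normalization by the median in place of loess the adjusted p was 0.000179, and over all alternatives it ranged up to 0.636.

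The 2 multiplexins, basement membrane zone collagens with interrupted helices, had opposite signs on the arrays, except that median centring in place of loess put Col18a1 at 0.92 and 0.57. Col18a1, whose end fragment is endostatin, had a brightness of 21400 in wild-type TAM RNA, 12400 in vehicle RNA, and 12800 and 14200 in the Sox9-deleted RNAs, so that wild-type TAM RNA was the highest. Its log2 ratios were 0.74 and -0.19 (second probe 0.70 and -0.15). Col15a1 had 291, 474, 473 and 432, with -0.70 and 0.13.

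Short-chain and fibril-associated collagens split by gene. Col8a1, a network-forming chain of vessel walls and the cornea, had a brightness of 1660 in wild-type TAM RNA and 1890 and 1910 in the Sox9-deleted RNAs, but 7200 in vehicle RNA. It was therefore set apart by 1 RNA, with log2 ratios of -0.19 and 1.92. Col8a2, its partner chain, had 183 in vehicle RNA and 98.7 to 109 elsewhere (0.06 and 0.89), and Col10a1, a chain of hypertrophic cartilage, had 197 in vehicle RNA and 98.4 to 107 elsewhere (-0.12 and 0.89). Col12a1, which binds the surface of type I fibrils, had 244, 730, 402 and 363, with -0.72 and 1.01, and a second probe gave -0.19 and 0.50. Col16a1, another fibril-associated chain, had 974, 1390, 1040 and 1080, with -0.09 and 0.37. The dim chains Col9a3, Col20a1, Col22a1, Col23a1 and Col25a1 had log2 ratios between -0.22 and 0.06 on both arrays. The offset added to every spot holds such dim values near 0.

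The 3 tested chains of type VI collagen, which forms beaded filaments around cells, were lower in wild-type TAM than in Sox9-deleted RNA. Col6a1 had a brightness of 408 in wild-type TAM RNA, against 733 in vehicle RNA and 699 and 682 in the Sox9-deleted RNAs. Col6a2 had 286, against 448, 472 and 458. In both, wild-type TAM RNA stood below the other three, whose values were close to each other. The log2 ratios of Col6a1 were -0.78 and 0.10, those of Col6a2 -0.72 and -0.03 (adjusted p = 0.392 in limma) and those of the dim Col6a3 -0.17 and -0.13. Second probes had opposite signs on the arrays, with -0.24 and 0.14 for Col6a2 and -0.11 and 0.06 for Col6a3.

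**Figure D2:**
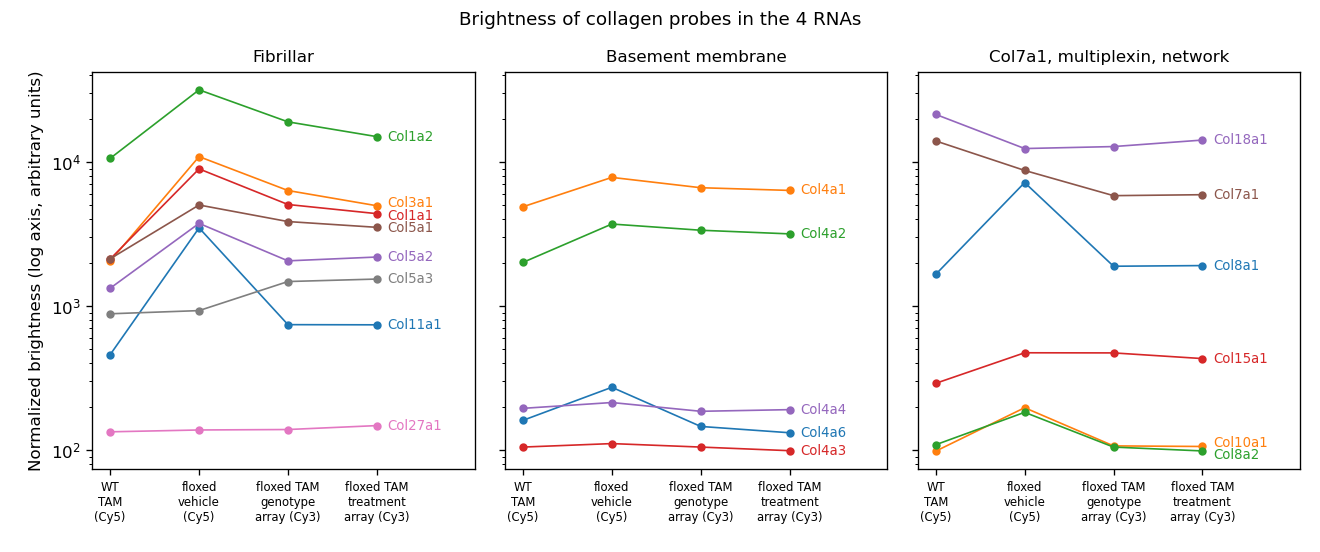
Normalized brightness (log axis, arbitrary units) of the fibrillar, basement membrane, network, multiplexin and Col7a1 chains tested, in 3 panels, with the 4 RNAs on the horizontal axis and 1 line per gene joining its values, each gene to be read against itself only. The lines of Col1a1, Col3a1 and Col11a1 run lowest in wild-type TAM RNA and highest in vehicle RNA, and that of Col7a1 runs higher in both Sox9-expressing RNAs than in the Sox9-deleted ones.

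No collagen chain passed the adjusted threshold for its mean log2 ratio. At an adjusted limma p under 0.05 there were 0 of the 29 chains, against 2 genes, or 0.0132%, of all tested, and 2 probes, or 0.0088%. At an unadjusted p under 0.05 there were 2 of 29, Col7a1 (0.0106) and Col5a3 (0.000692), against 19.6% of all tested genes (10.5% higher and 9.08% lower with Sox9). The methods' t-test gave 1, Col5a3, and 0 after Benjamini-Hochberg adjustment. Above 0 on both arrays before rounding were 6 chains (Col4a3, Col4a4, Col4a6, Col7a1, Col8a2 and Col9a3), against 33.9% of all tested genes. Among them, Col4a3 was at 0.00 in the genotype comparison and at -0.01 with median centring, -0.04 with no background subtraction and -0.29 with the scanner software's processed signals. Lower on both were 5 (Col5a3, Col6a2, Col6a3, Col23a1 and Col27a1), against 33.8%. Second probes of Col6a2 and Col6a3 had opposite signs on the arrays, and with probes of a gene averaged 4 chains were lower on both. At least 2-fold in one direction on both arrays were none, against 0.377% of all genes higher and 0.159% lower.

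In the remaining 18 chains the 2 arrays had opposite signs, against 32.4% of all tested genes. Of these, 15 were lower with Sox9 in the genotype and higher in the treatment comparison, which is 51.7% of the 29 chains against 18.4% of all genes. Col18a1, Col20a1 and Col25a1 had the reverse signs. The ratio was higher in the treatment than in the genotype comparison for 23 of the 29 chains, against 51.4% of all genes. With a difference of at least 0.5 on each array there were 7 chains (Col1a1, Col1a2, Col3a1, Col5a1, Col5a2, Col11a1 and Col12a1), and 0.655% of all genes did so. With probes of a gene averaged, Col5a1 and Col12a1 fell short of 0.5 in the genotype comparison. A single log2 ratio of at least 1 in the treatment comparison was found for 7 chains (all genes 1.73%) and in the genotype comparison for 1, Col7a1 (all genes 0.589%). The former were Col1a1, Col1a2, Col3a1, Col4a6, Col8a1, Col11a1 and Col12a1. Counted in either direction, 3 chains were at least 2-fold apart in the genotype comparison, against 253 of 15122 genes. Besides Col7a1 these were Col1a1 (-1.26) and Col3a1 (-1.63). Across genes the 2 arrays correlated with Pearson's r of 0.44 and Spearman's rho of 0.46 over all tested genes, and -0.26 and -0.30 over the 29 chains. Genes of one array are not independent replicates, and these values are a description.

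**Figure D3:**
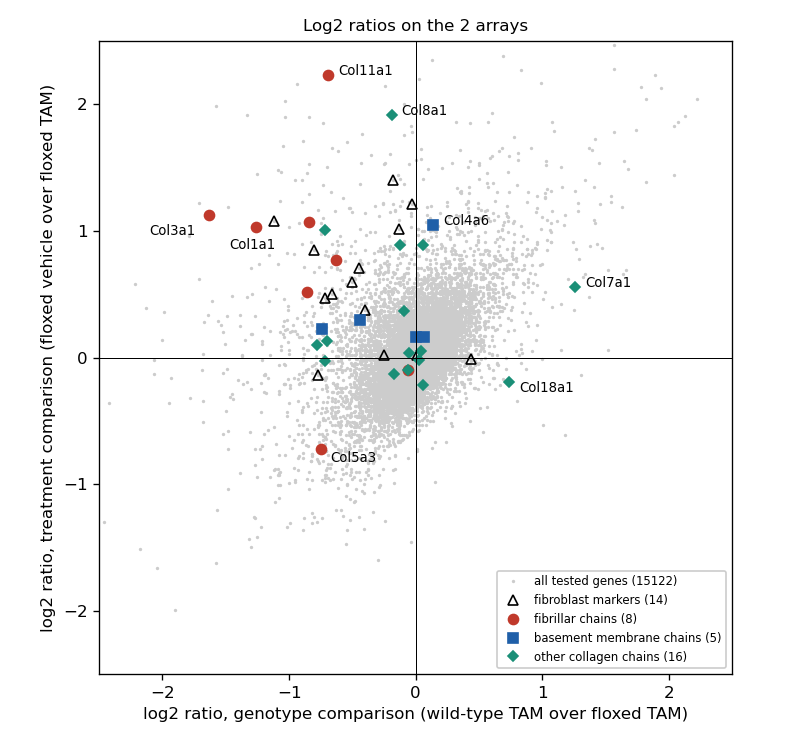
Log2 ratio of each tested gene in the genotype comparison (horizontal axis) and the treatment comparison (vertical axis), with all genes in gray and 25 of them beyond the range drawn. The fibrillar chains other than Col5a3 and Col27a1 lie at the upper left, as do most fibroblast markers (triangles), and Col7a1 lies at the right.

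The normalized brightness of the RNAs, which holds the same log2 ratios, was then set side by side across the arrays. Vehicle RNA was highest and wild-type TAM RNA lowest of the 4 in 15 of 29 chains, against 11.4% of all tested genes, and in 6 of the 8 fibrillar chains. This order cannot occur without the opposite signs, so these are the chains already counted by sign and no further support. Vehicle over wild-type TAM RNA was 7.58-fold for Col11a1, 5.30-fold for Col3a1, 4.33-fold for Col8a1, 4.23-fold for Col1a1 and 2.98-fold for Col1a2, and it was 0.624-fold for Col7a1. The median of this difference on the log2 scale was 1.53 for the fibrillar chains, 0.68 for the basement membrane chains and -0.01 for all genes. Between the 2 Sox9-deleted RNAs, the collagen chains differed by -0.35 to 0.14 on that scale (treatment minus genotype comparison). In these normalized values the spread therefore lay in the Sox9-expressing RNAs. Both of them were labelled with Cy5, so a difference of that dye between arrays and a difference of the RNAs cannot be told apart. No other scaling across arrays was tried. Since 1 RNA of each kind was measured, the repeatability of the spread is not known.

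Most markers of fibroblasts and smooth muscle had the signs of the fibrillar chains on the 2 arrays, and none of the tested markers of epithelium had them. Over all tested genes the share with these signs was 18.4%. For lists this small, 0 of 9 epithelial and 1 of 4 endothelial markers are near that share. Of the 14 tested fibroblast markers, 11 were lower with Sox9 in the genotype and higher in the treatment comparison, with medians of -0.42 and 0.55. Only 2 of the 14, Lum and Fbln2, had these signs by at least 0.5 on each array. For the fibrillar chains this was 6 of 8, and for all tested genes 0.655%. Lum, a fibril-binding proteoglycan, had -0.80 and 0.85, and Fbln2, a matrix glycoprotein, -1.12 and 1.08, whereas Dcn, another proteoglycan, had -0.77 and -0.14. Fap had -0.18 and 1.4 (mean 0.61), Fbln1 -0.03 and 1.21 (mean 0.59) and Pdgfra -0.72 and 0.47 (mean -0.13). Among the smooth muscle genes, Cnn1 had 0.29 and 1.54 (mean 0.91) and Smtn 0.68 and 0.63 (mean 0.66). Tagln had -0.71 and 0.24 (mean -0.24) and Des -0.42 and 0.11 (mean -0.15). The brightness summed over all 15 fibroblast markers was 46500 in wild-type TAM and 96200 in vehicle RNA, against 66200 and 62300 in the Sox9-deleted RNAs, and 13, 15, 14 and 15 of them were well above background. Of the smooth muscle markers, 6 of 8 had the signs of the fibrillar chains (medians -0.15 and 0.73), and 0 of 8 by at least 0.5 on each array. All 8 were well above background in each RNA, with sums of 15200, 34300, 21100 and 23900. Of the 4 tested endothelial markers 1 had these signs (medians -0.12 and -0.12), and Cdh5 and Vwf each had a mean of -0.14. Of 7 endothelial markers, 4 were well above background in each RNA, and Pecam1, Tie1 and Tek in none, and their sums ran from 1300 to 2000. Among 9 tested epithelial markers 0 had these signs, and the sums over all 10 listed were 392500, 320900, 222800 and 263800. Krt5, a basal keratin, had a mean log2 ratio of 2.02, Krt14 1.96 and Trp63 1.60, each at least 2-fold higher with Sox9 on both arrays. In the same list 5 markers were higher and 3 lower on both, among the latter Cldn4, a tight junction protein, with -0.84 and -1.04, Krt18, a luminal keratin, with -0.28 and -1.01, and Cdh1 with -0.31 and -0.32. The summed brightness of a list leans on its brightest probes and is not a measure of cell content. For epithelium these were keratin probes, which differed in direction. In the order of the sums, Krt5 had a brightness of 103000, 90300, 23600 and 24000, and Krt8 84800, 65400, 84000 and 109000. The part of stromal cells in the collagen levels was not tested.

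Most genes that fold and modify collagen had the same signs on the 2 arrays as the fibrillar chains, with medians nearer 0. Of 15 tested, 13 were lower with Sox9 in the genotype and higher in the treatment comparison, against 18.4% of all tested genes. The other 2 were higher on both, and the medians were -0.32 and 0.23. By at least 0.5 on each array, 0 of the 15 had the signs of the fibrillar chains. Serpinh1, a collagen chaperone, had log2 ratios of -0.24 and 0.52. P4ha3, a prolyl hydroxylase subunit, had 0.09 and 1.19, and Glt25d1 0.31 and 0.2 (mean 0.25). Plod1 had -0.45 and 0.1 (mean -0.17) and Fkbp10 -0.6 and 0.34 (mean -0.13). Among genes that cut propeptides or crosslink fibrils, 9 of 11 had these signs (medians -0.10 and 0.15), and 1 of 11 by at least 0.5 on each array. Pcolce, an enhancer of procollagen cleavage, had -0.80 and 0.68, and Adamts2, a procollagen protease, -1.35 and 0.14. Loxl3 had 0.03 and 0.48 (mean 0.25), Bmp1 0.2 and 0.15 (mean 0.18) and Loxl2 -1.04 and 0.46 (mean -0.29).

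Of 7 tested collagen receptors, 4 had these signs, against 18.4% of all tested genes. Itga11, a subunit of the fibroblast integrin for fibrillar collagen, had -0.61 and 1.63. Ddr1, the collagen receptor kinase of epithelial cells, had 0.79 and 0.64 (mean 0.72 ± 0.11, SD, n = 2, adjusted p = 0.106 in limma). Ddr2, its mesenchymal relative, had -0.85 and 0.06 (mean -0.39) and Mrc2 -0.87 and 0.36 (mean -0.26), so their signs differed between the arrays. Of the other basement membrane genes, 6 of 13 had the signs of the fibrillar chains (medians -0.07 and 0.21). Lamb3, a chain of an epithelial laminin, had 0.89 and 0.25 (mean 0.57). Nid1 had -0.95 and 0.21 (mean -0.37) and Lama5 -0.08 and -0.61 (mean -0.35). None of the genes in the lists of folding, processing, receptor and basement membrane genes was at least 2-fold apart in one direction on both arrays or passed the adjusted threshold.

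**Figure D4:**
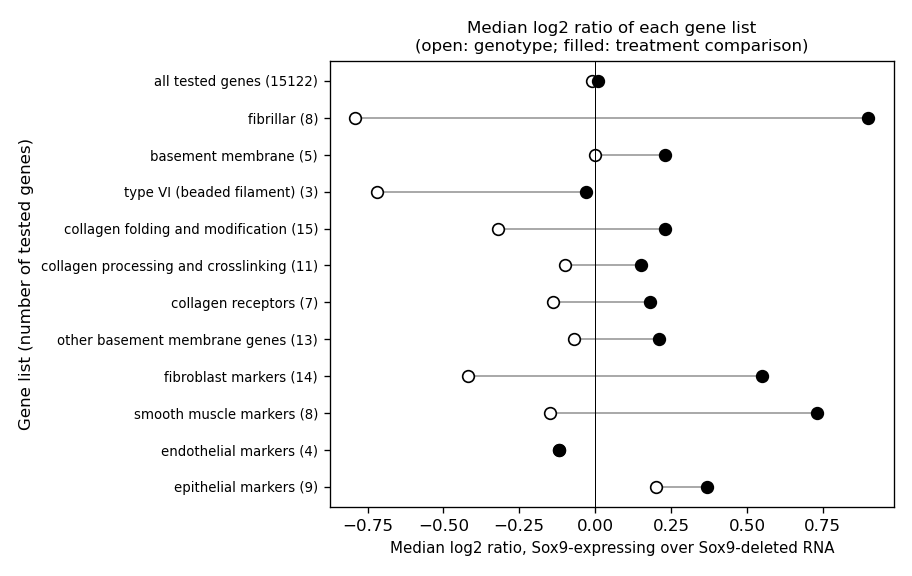
Median log2 ratio of Sox9-expressing over Sox9-deleted RNA over the tested genes of each list (number in brackets), with the genotype comparison as open and the treatment comparison as filled points. The fibrillar chains reach from -0.79 to 0.90 and the fibroblast markers from -0.42 to 0.55, whereas the median of all genes is near 0 on both arrays.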

How the data were processed

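Total RNA of prostaspheres was hybridized in 2 colours on 2 Agilent arrays, with Cy5 for the Sox9-expressing and Cy3 for the Sox9-deleted RNA on both. Titles, treatments, genotypes and dyes of the labels gave the groups. The genotype label is Sox9 null for both RNAs of the treatment comparison, and source names that call Cy5 RNAs SOX9 and Cy3 RNAs Ctrl were disregarded. The deposited files of the authors' scanner software (Feature Extraction 10.5.1.1) give the intensity of each spot and its background, other marks such as well above background, and a log10 ratio of Cy5 over Cy3. The authors also deposited processed log2 ratios, whose processing is not given in the sources used here, with medians of -0.00989 and -0.00344 and a correlation with the log10 ratios of 0.983 and 0.987. Probe coordinates are those of the files (mm9). Whether a probe lies in an exon or an untranslated region was not analysed here.

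Intensities were background-corrected with normexp (offset 50) in limma 3.58.1 (R 4.3.3), control spots (1639 of 45018) were left out and loess was applied within each array. Spots marked as outliers (126 and 130) were dropped, and replicate spots averaged. For brightness, arrays were then scaled by Aquantile, and the values include the offset, which understates ratios of dim probes. Of 41174 probes, 22731 were tested, those well above background in both Cy5 or both Cy3 RNAs. The mean log2 ratio was tested against 0 with limma, 2-sided, with Benjamini-Hochberg adjustment over these probes and 1 residual degree of freedom (prior 2.8). Saturated spots numbered 0, and precision is limited by the number of arrays. Scripts were tested on simulated data. The alternatives were other backgrounds, offsets, normalizations, filters, probe rules, the authors' log2 table, the methods' t-test and leaving out each array. All collagen chains were named, and of other lists Sox9, genes at least 2-fold apart on both arrays, the 2 with the largest mean change in each direction, and Lum, Fbln2, Pcolce and Serpinh1, which were chosen after their values were seen. Some genes of these lists are not reported here. The collagen chains, their classes and the lists were chosen with earlier results of these data known.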

Additional observations from a re-analysis of the deposited data

Results flagged for a closer look

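In 7 collagen chains the log2 ratio was lower than -0.5 in the genotype and higher than 0.5 in the treatment comparison. The treatment minus the genotype ratio was 2.92 for Col11a1, 2.76 for Col3a1, 2.29 for Col1a1, 1.91 for Col1a2, 1.73 for Col12a1, 1.40 for Col5a2 and 1.38 for Col5a1. These values are those of the brightest probes. With probes of a gene averaged, Col5a1 had -0.47 and 0.41 and Col12a1 -0.46 and 0.75, so both missed -0.5 in the genotype comparison. Each comparison has 1 array, so the difference was not tested. Fibroblast and smooth muscle markers had medians with the same signs, but only 2 of 14 and 0 of 8 reached 0.5 on each array. The part of these markers in the chain values was not tested.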

How the results depend on the processing

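The number of probes past an adjusted p of 0.05, 2 in limma, was 522 with median centring in place of loess, 68 with the authors' table and 21 with no filter on dim probes. It was 0 with an offset of 10, with no background subtraction, with the scanner software's processed signals, with arrays scaled to 1 spread and with the methods' t-test. The cause was not tested. The chains lower in the genotype and higher in the treatment comparison numbered 13 to 19 under the alternatives, and the fibrillar ones 6 or 7. Median centring left 2 chains lower on both arrays, and the filter on all 4 RNAs left 3 higher on both, with fewer genes tested. The fibrillar minus basement membrane median, -0.79 in the genotype comparison, was -0.67 with median centring, -0.58 with the scanner software's processed signals, -1.08 with arrays scaled, -0.61 with probes well above background in all 4 RNAs and -0.57 with probes of a gene averaged. In the treatment comparison it was 0.68, and 0.50 with arrays scaled. Median centring shifted the median of all genes in the treatment comparison to 0.42, the fibrillar median to 1.55 and the basement membrane median to 0.86, and turned the means of 2 dim chains, Col9a3 to -0.02 and Col27a1 to 0.01. On single arrays, it turned Col18a1 in the treatment comparison to 0.57 and Col4a3 in the genotype comparison to -0.01, and Col25a1 in the treatment comparison turned to 0.08 with no background subtraction and 0.15 with processed signals, with Col4a3 at -0.04 and -0.29. Under it Col7a1 had a mean of 1.33 and passed the threshold, and Col5a3 a mean of -0.44 (adjusted p = 0.619 in limma). Of 87 mean ratios of chains with 1 direction that had a p under an alternative, 84 kept their direction and their side of the threshold, and 30 with no p kept their direction. Part of this was fixed in advance. These chains had 1 sign on both arrays, so leaving out an array could not turn them. The filters and the methods' t-test used the same mean ratios, so only the p could change there. Col7a1 had 0.56 or 1.26 and Col5a3 -0.72 or -0.75 when 1 array was left out, which are the values of the other array. Each array is itself a direct comparison of RNAs, so a test of the mean log2 ratio against 0 is paired by array. No other pairing was modelled, because the arrays form 1 group. Limits are the 2 arrays, the missing dye swap and, for dim chains, the small signal over background.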
